A study of Mus musculus with 8 samples.

Results

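The genes described here are the matrix metalloproteinases (MMPs), the ADAMs, the ADAMTSs with the ADAMTS-like genes, and the tissue inhibitors of metalloproteinases (TIMPs), measured in pressure-loaded hearts of CITED4 knockout and floxed control mice. They were taken by symbol from the array's annotation, from probe sets that carry exactly 1 symbol, and a gene with several such probe sets is shown by the one with the highest mean over all arrays. This gave 82 genes of 22180 on the array, namely 22 Mmp, 33 Adam, 23 Adamts and 4 Timp genes. The samples were 8 hearts of male C57Bl6N mice, 4 labelled floxed control and 4 labelled CITED4 knockout, 1 array each. Every mouse had undergone TAC (transverse aortic constriction), in which a tie around the aorta raises the pressure the left ventricle works against, and all hearts were taken 1 week later, so the design compares genotypes under load and holds no unoperated heart. The age of the mice, the Cre driver and whether the floxed controls carried Cre are not stated in the labels. The labels number the hearts but tie them to no litter or array run, so each p-value reflects only how much these 8 samples vary. In RNA of bulk heart tissue fewer cells of a type and less RNA per cell cannot be told apart.

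MMPs are zinc-dependent enzymes that are made as inactive precursors and, once activated, cut collagens, gelatin, proteoglycans and many signalling proteins outside the cell. ADAMs are membrane-anchored relatives that release growth factors, cytokines and receptors from the cell surface, while ADAMTSs are secreted and act on proteoglycans, procollagens and microfibrils. TIMPs bind the active site of these enzymes, and the balance between enzymes and inhibitors is a classical subject in the remodelling of the loaded heart.

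Regulatory sequence near the start sites is shown first, because it sets one block of MMP genes apart among the genes for which such sequence was at hand. RefSeq promoter windows of GRCm38.p6 (250 bases before to 50 after a start site) were at hand for 51 of the 82 genes, and the AP-1 motif TGANTCA, which reads the same on both strands, was searched in them. It stood in at least 1 window of 13 of these 51 genes (25.5%), against 8.97% of all 27025 genes with a window and 7.81% of all windows. Of the 13 genes 8 were Mmp and 5 were Adam genes, with 0 of 13 Adamts and 0 of 4 Timp genes. The 8 Mmp genes belong to a block of 10 Mmp genes that neighbour each other on chromosome 9. Outside the block, Mmp2, Mmp9, Mmp16, Mmp17 and Mmp19 had no window, so the motif could not be searched there. Mmp7 and Mmp12 each had a further window without the motif. In the windows that held it, the motifs began 35 to 95 bases before the start site. Each is printed 5′ to 3′ along the gene's own strand with 12 bases on either side and the motif in capitals, to show that the motif is shared while its surroundings mostly differ:
Mmp1a: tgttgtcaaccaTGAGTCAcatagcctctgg
Mmp1b: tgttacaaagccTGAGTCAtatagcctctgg
Mmp3: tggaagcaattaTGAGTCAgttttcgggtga
Mmp7: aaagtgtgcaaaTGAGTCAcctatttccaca
Mmp10: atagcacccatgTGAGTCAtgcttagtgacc
Mmp12: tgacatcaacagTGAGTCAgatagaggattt
Mmp13: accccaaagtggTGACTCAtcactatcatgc
Mmp20: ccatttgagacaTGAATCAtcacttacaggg
The stretches lie, in the same order, at chr9:7464056-7464086, chr9:7388101-7388131, chr9:7445764-7445794, chr9:7692015-7692045, chr9:7502267-7502297, chr9:7347318-7347348, chr9:7272467-7272497 and chr9:7628124-7628154, with Mmp1b on the minus strand and the others on the plus strand. Mmp1a and Mmp1b, a duplicated pair of interstitial collagenase genes, share much of the sequence after the motif. Mmp8 and Mmp27, the other genes of the block, had no TGANTCA in their windows. Of the 10 genes in the block only Mmp3, Mmp13 and Mmp27 had a mean signal that reached the lower limit for testing (below), so these hearts gave a testable signal for few of the genes with the motif. A match describes letters in the window only.

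Among the genes outside that block, Adam19 held the motif in 1 of its 3 windows, beginning 131 bases before a start site. This stretch at chr11:46055841-46055871 (plus strand) is shown because Adam19 was the only tested gene of the families whose knockout values all lay below the control values:
Adam19: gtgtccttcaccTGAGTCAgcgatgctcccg
The 250 bases before the start site are printed for the genes that the comparison below turns on most, without TGANTCA in any of their windows. They are Timp1, Timp3 and Timp4, inhibitors with unlike patterns over the hearts, and Adamtsl2, whose groups did not overlap:
Timp1: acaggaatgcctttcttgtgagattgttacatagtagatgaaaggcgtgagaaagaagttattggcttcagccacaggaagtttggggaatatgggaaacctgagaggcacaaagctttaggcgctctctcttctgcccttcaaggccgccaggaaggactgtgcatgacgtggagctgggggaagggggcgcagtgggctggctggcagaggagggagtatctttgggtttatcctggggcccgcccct
Timp3: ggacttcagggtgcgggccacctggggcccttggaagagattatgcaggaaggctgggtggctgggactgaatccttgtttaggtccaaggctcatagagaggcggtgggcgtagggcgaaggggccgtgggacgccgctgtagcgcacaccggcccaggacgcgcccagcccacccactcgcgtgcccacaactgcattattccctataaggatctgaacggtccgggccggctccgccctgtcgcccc
Timp4: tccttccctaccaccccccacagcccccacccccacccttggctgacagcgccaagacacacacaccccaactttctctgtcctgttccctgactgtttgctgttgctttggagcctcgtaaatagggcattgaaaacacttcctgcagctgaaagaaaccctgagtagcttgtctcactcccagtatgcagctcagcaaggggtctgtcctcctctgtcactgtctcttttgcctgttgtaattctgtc
Adamtsl2: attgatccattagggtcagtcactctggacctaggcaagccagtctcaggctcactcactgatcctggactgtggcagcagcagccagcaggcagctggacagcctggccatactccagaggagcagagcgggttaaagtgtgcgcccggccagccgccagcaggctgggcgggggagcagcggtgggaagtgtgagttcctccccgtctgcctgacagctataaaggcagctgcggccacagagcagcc
These lie at chrX:20869916-20870165, chr10:86300162-86300411, chr6:115252206-115252455 and chr2:27079129-27079378, with Timp4 on the minus strand and the others on the plus strand.

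The targeted gene was checked first. Cited4 gave log2 signals of 5.89, 5.76, 6.05 and 6.22 in control replicates 1 to 4 and 5.26, 5.15, 4.83 and 5.02 in the knockout replicates. Every knockout value was below every control value, with a difference of -0.91 ± 0.12 (log2, limma standard error) and an adjusted p of 0.277. Where its probes lie relative to the deleted part was not known here. Array medians ran from 4.29 to 4.33, and correlations between arrays from 0.979 to 0.988. Over the 15086 genes with a mean signal of at least 3.80, the 40th percentile of all probe sets, limma with Benjamini-Hochberg adjustment called 0 genes (0%) at an adjusted p of 0.05, with 1697 (11.2%) at an unadjusted p under 0.05. For the labelled tissue, 10 of 10 ventricular cardiomyocyte markers passed that limit, with a mean log2 signal of 11.37 to 11.45 in control and 11.11 to 11.41 in knockout hearts, lowest in knockout replicates 1 and 4 (11.11 and 11.12). The part of other cell types was not tested, and their values follow. The mean of 10 activated fibroblast markers, all above the limit, was 8.91, 7.56, 7.63 and 7.89 in the control and 9.47, 8.55, 8.02 and 9.41 in the knockout replicates, with 9 of 10 higher and a median difference of 0.92. Smooth muscle and pericyte markers (8 of 8 above the limit, 4 higher and 4 lower) were also highest in control replicate 1 and knockout replicates 1 and 4, with means of 8.18, 8.30 and 8.19 against 7.67 to 7.96 in the other hearts. General fibroblast markers (7 of 7, 5 higher) had a mean of 8.81 to 9.31 in control and 8.95 to 9.31 in knockout hearts, and endothelial markers (8 of 8, 3 higher) 8.22 to 8.40 and 8.14 to 8.52. Macrophage markers (10 of 10 above the limit, 8 higher) had a mean of 7.34 to 7.62 in control and 7.40 to 7.79 in knockout hearts. Atrial markers (6 of 7 above the limit, Bmp10 below) stood at 7.79 in knockout replicate 2 and between 5.83 and 6.32 in the other arrays. Of 10 neutrophil markers only 3 passed, and S100a8, S100a9, Ly6g, Camp, Retnlg, Mpo and Elane were below the limit.

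Of the 82 genes 51 reached the limit and were tested: 13 of 22 Mmp, 12 of 33 Adam, 22 of 23 Adamts and 4 of 4 Timp genes. No gene of the families passed the test (0 of 51, against 0 of 15086), with adjusted p-values from 0.421 to 0.997. The unadjusted p was under 0.05 in 9 genes (17.6% of 51, against 11.2% of all genes), 7 higher in the knockout (all genes 5.64%) and 2 lower (all genes 5.61%). The higher ones were Timp1, Timp3, Mmp23, Adamts4, Adamts10, Adamts12 and Adamtsl2, and the lower ones Adam19 and Adamts7. The difference was above 0 in 34 of 51 genes (66.7%), against 51.2% of all genes. A log2 difference of at least 0.4 in either direction was found in 8 genes (15.7%), against 3.69% of all genes. They were Timp1, Timp4, Mmp14, Adam9, Adamts12, Adamts16, Adamtsl2 and Adamtsl3. Most of them varied widely within groups, with an SD of 0.2 for Adamtsl2 and 0.31 to 0.74 for the others. The median SD was 0.15 for all genes tested. The 4 knockout and 4 control values did not overlap in 3 genes (5.88%), close to the 5.23% of all genes. These were Timp3 and Adamtsl2, higher in the knockout (all genes 2.33%), and Adam19, lower (all genes 2.9%). Both counts moved when 1 array was left out, and so did the shares of all genes. An unadjusted p under 0.05 was found in 15 genes (29.4%) without control replicate 1 and in 15 without knockout replicate 3, against 14.3% and 14.4% of all genes. It was found in 5 (9.8%) without control replicate 3, against 7.35%, and in 3 (5.88%) without control replicate 2 or without knockout replicate 1, against 7% and 6.54%. The groups did not overlap in 11 genes (21.6%) without control replicate 1, against 14% of all genes, in 6 (11.8%) without control replicate 4, against 7.81%, and in 5 (9.8%) without knockout replicate 2, against 13%. By family the median difference was 0.03 for Mmp, 0.08 for Adam, 0.03 for Adamts and 0.19 for Timp genes, beside a median of 0.00 for all genes tested. When any single array was left out, it ranged from 0.03 to 0.10 for Mmp (0.10 without control replicate 2), from 0.02 (without control replicate 3) to 0.11 for Adam, from 0.02 to 0.11 for Adamts (0.11 without knockout replicate 2) and from 0.16 to 0.22 for Timp genes. The Mmp median was 0.26 with a limit at the 60th percentile. These medians are descriptions, and the families were not tested against each other.

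**Figure D1:**
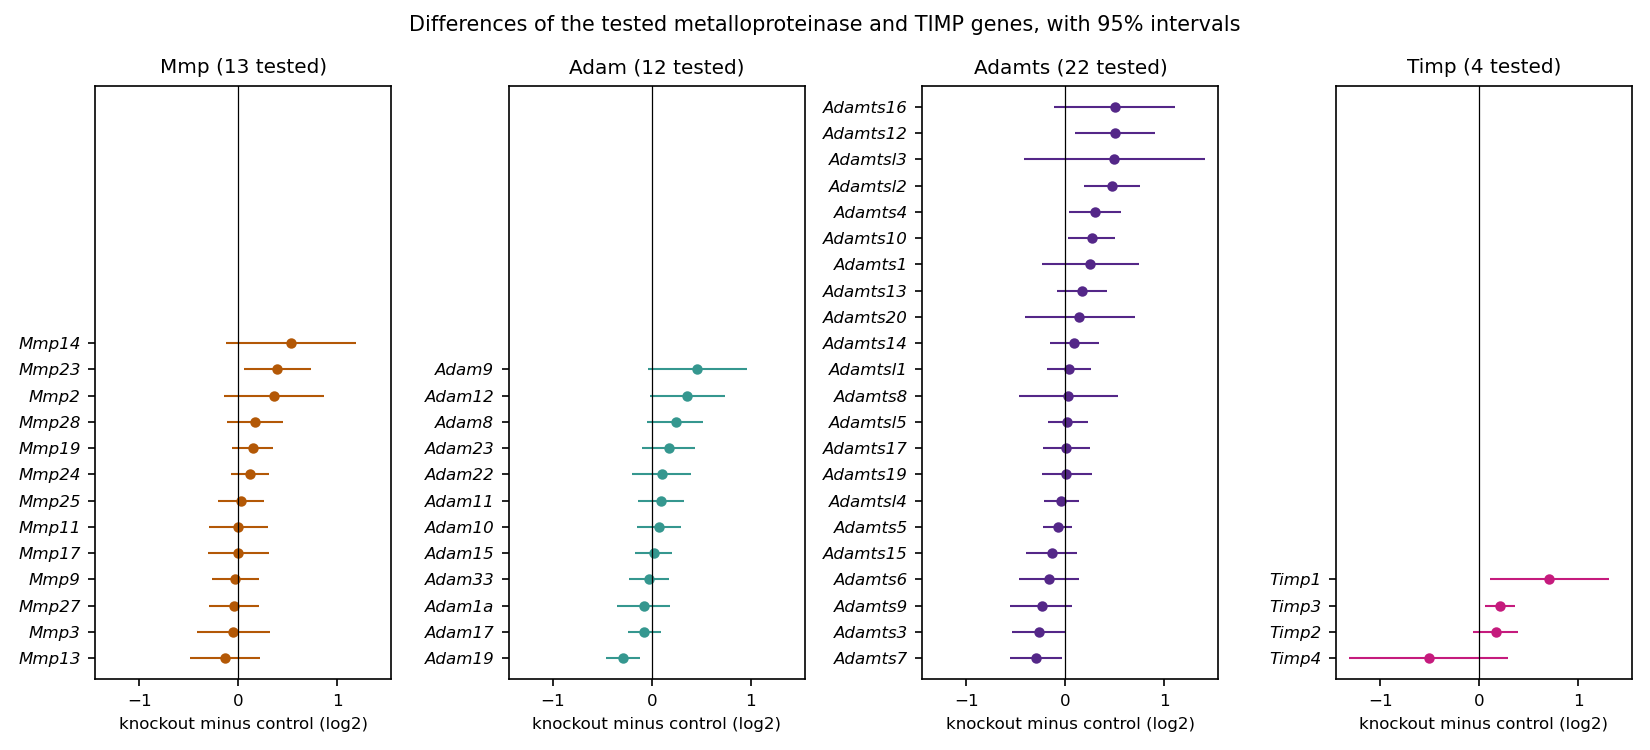
Knockout minus control difference (log2, horizontal axis) of each of the 51 tested genes, in 1 panel per family, with limma's 95% interval as a line. Most points lie near 0, Timp1 has the highest difference (0.71) and Timp4 the lowest (-0.51), and the lines of Timp4 and Adamtsl3 are the widest in their panels.

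The inhibitors held both ends of the range, with Timp1 the highest difference of the 51 genes and Timp4 the lowest. Timp1, the inducible TIMP of injured and remodelling tissue, had log2 signals of 7.60, 6.55, 7.10 and 7.11 in control replicates 1 to 4 and 8.44, 7.32, 7.44 and 8.01 in knockout replicates 1 to 4. Knockout replicates 1 and 4 were the highest of all, while control replicate 1 lay above knockout replicates 2 and 3, so the groups overlapped. Timp1 differed by 0.71 ± 0.27 (SE, 95% interval 0.11 to 1.31, 1.64-fold), with an unadjusted limma p of 0.0244 and an adjusted p of 0.421. Over the 70 possible assignments of 8 hearts, the exact permutation p (two-sided) was 0.0857. The difference was 0.29 without knockout replicates 1 and 4, the knockout hearts with the highest activated fibroblast and smooth muscle markers.

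Timp3, which binds to the extracellular matrix and also inhibits ADAM17, differed by less but with little spread. Its control values were 9.02, 8.93, 8.95 and 9.02, and its knockout values 9.15, 9.26, 9.20 and 9.16. All knockout hearts were above all control hearts, and the SD was 0.04 in control and 0.05 in knockout hearts (n = 4 each). The difference was 0.21 ± 0.07 (SE, 95% interval 0.06 to 0.36, 1.16-fold), with an adjusted p of 0.421 and an exact permutation p of 0.0286, the smallest that 4 against 4 arrays allow. The difference was 0.25 without replicates 1 and 4, the knockout hearts with the highest activated fibroblast markers. General fibroblast markers had means of 9.29, 9.31, 8.95 and 9.31 in knockout replicates 1 to 4, and a link with Timp3 was not tested. When any single array was left out, the Timp3 difference was 0.19 to 0.23.

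Timp4, the TIMP known for its expression in heart muscle, varied most among the inhibitors. It stood at 5.37, 6.24, 6.49 and 6.43 in the control and at 4.78, 6.06, 6.44 and 5.23 in the knockout replicates. Control replicate 1 and knockout replicates 1 and 4 were low and the other 5 hearts lay between 6.06 and 6.49, so both groups held low values. The difference of -0.51 ± 0.36 (adjusted p = 0.598) turned to 0.11 without knockout replicates 1 and 4, with the low control replicate 1 kept. The 3 low hearts had the highest activated fibroblast markers (8.91, 9.47 and 9.41) and the highest smooth muscle and pericyte markers (8.18, 8.30 and 8.19). A link between these markers and Timp4 was not tested. The difference was -0.23 without knockout replicate 1 and -0.78 without knockout replicate 3. Timp2, the inhibitor that helps MMP14 to activate MMP2, was at 8.88 ± 0.17 in the control hearts and 9.05 ± 0.12 in the knockout hearts (SD, n = 4), which differed by 0.17 ± 0.10 (SE, adjusted p = 0.537). On the RefSeq map Timp1 lies within the synapsin gene Syn1, Timp3 within Syn3 and Timp4 within Syn2. These hosts differed by -0.02 ± 0.10, 0.01 ± 0.11 and -0.08 ± 0.10 (SE), each less than the size of its inner gene's difference. Their signals were weak, with means of 4.88 for Syn1, 3.85 for Syn3 and 4.44 for Syn2, which limits this comparison.

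**Figure D2:**
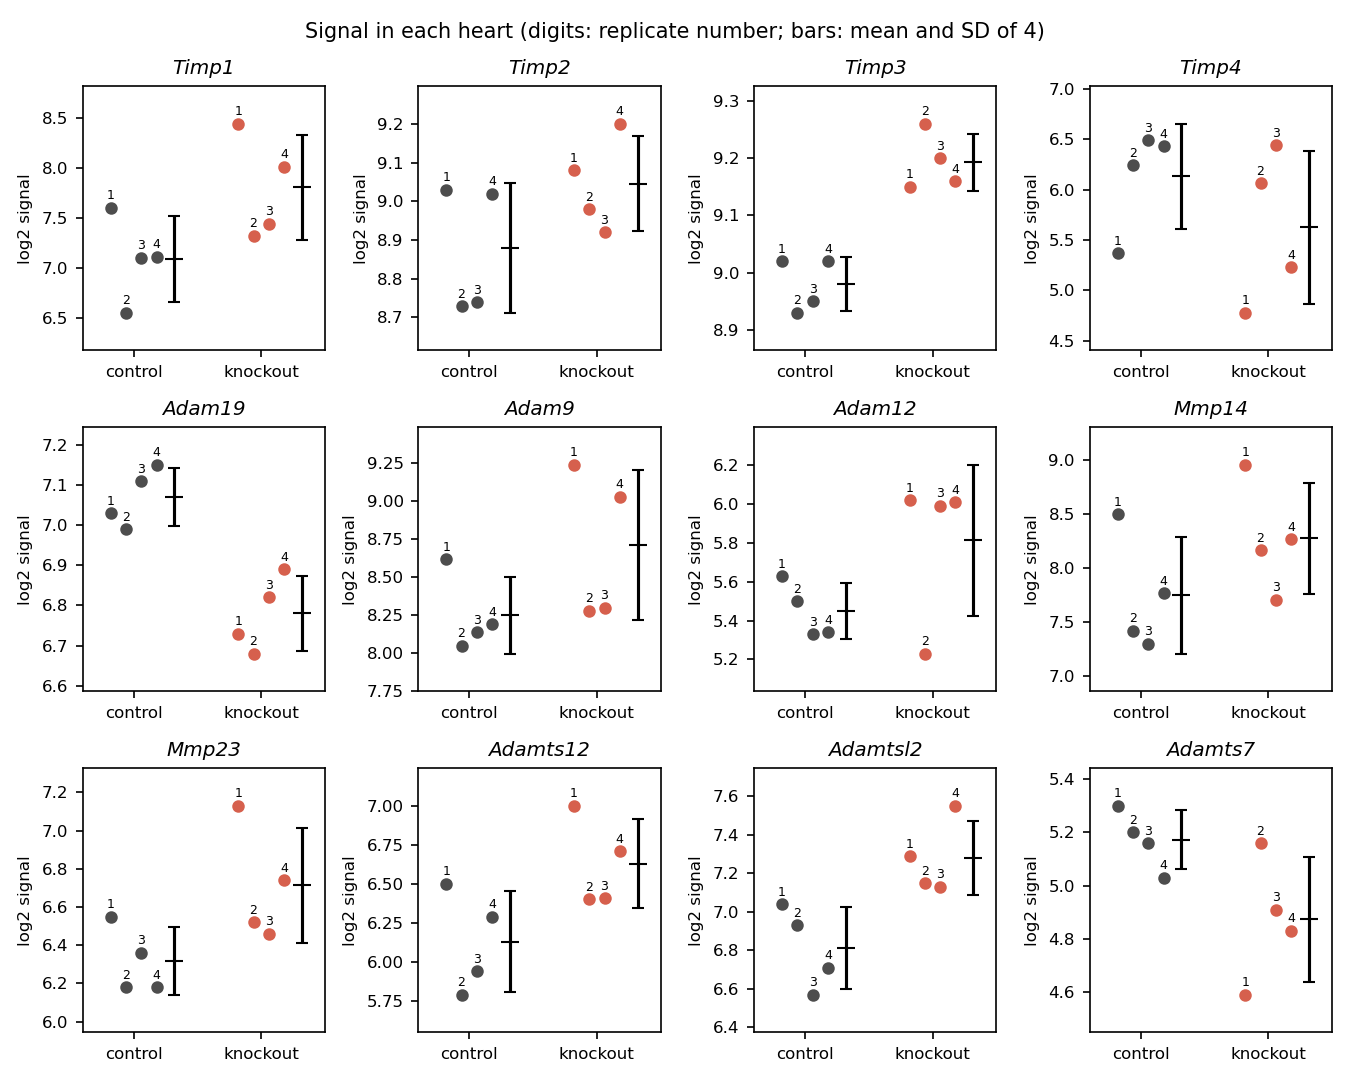
Log2 signal (vertical axis, scaled per gene) of 12 genes in each heart, as points numbered by replicate, with the mean and SD of 4 hearts per group. Timp3, Adamtsl2 and Adam19 separate the groups, whereas in Timp1, Adam9 and Mmp14 control replicate 1 lies among the knockout hearts.

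Among the MMPs, the highest differences were those of the membrane-anchored Mmp14 and Mmp23 and of the gelatinase gene Mmp2. Of 7 listed membrane-anchored genes 5 were tested, with differences from 0.00 (Mmp17) to 0.53 (Mmp14) and a median of 0.12. Mmp17 differed by -0.15 without knockout replicate 4, and Mmp25, at 0.03, had a mean of 3.86, near the lower limit for testing. Mmp14, the membrane-type enzyme that cuts collagen at the cell surface and activates MMP2, was at 8.50, 7.42, 7.30 and 7.77 in the control and at 8.96, 8.17, 7.71 and 8.27 in the knockout replicates. Control replicate 1 exceeded every knockout heart except replicate 1. Mmp14 differed by 0.53 ± 0.30 (SE, 95% interval -0.12 to 1.19), with an adjusted p of 0.508. The difference was 0.78 without control replicate 1, 0.30 without knockout replicate 1 and 0.19 without knockout replicates 1 and 4.

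Mmp23, which encodes a membrane-anchored MMP of unusual domain structure, was the MMP gene with the smallest p. Its control values were 6.55, 6.18, 6.36 and 6.18 and its knockout values 7.13, 6.52, 6.46 and 6.74, a difference of 0.39 ± 0.15 (SE, 1.31-fold, unadjusted limma p of 0.0242, adjusted p of 0.421, exact permutation p of 0.0857). The groups overlapped because control replicate 1 lay above knockout replicates 2 and 3. Without knockout replicate 1 the difference was 0.26, and without knockout replicates 1 and 4 it was 0.17.

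Mmp2, gelatinase A, which is made by fibroblasts, was at 9.78, 8.92, 8.78 and 9.06 in the control and at 9.76, 9.60, 8.99 and 9.63 in the knockout replicates. Its highest value was that of control replicate 1, and the difference was 0.36 ± 0.23 (adjusted p = 0.545), with 0.58 without that control heart and 0.16 without knockout replicates 1 and 4. Mmp9, gelatinase B, which is abundant in neutrophils, was at 3.97 ± 0.19 in the control hearts and 3.94 ± 0.12 in the knockout hearts, near the lower limit for testing. Mmp19, a soluble MMP of broad specificity, differed by 0.15 ± 0.09 (SE, adjusted p = 0.544). The other tested MMP genes, Mmp11, Mmp17, Mmp24, Mmp25 and Mmp28, differed by at most 0.17.

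The collagenase, stromelysin and metalloelastase genes gave little signal, with the most in Mmp11, stromelysin 3, at a mean of 4.95. A further Mmp11 probe set that also passed the limit differed by -0.15 ± 0.13 (SE). Mmp3, stromelysin 1, was at 4.07 ± 0.26 in the control hearts and 4.02 ± 0.30 in the knockout hearts, Mmp13, the main rodent interstitial collagenase, at 3.95 ± 0.30 and 3.82 ± 0.23, and Mmp27 at 4.12 ± 0.18 and 4.08 ± 0.17 (SD, n = 4). Their differences (-0.05, -0.13 and -0.04) were smaller than the spread within the groups, and that of Mmp13 ran from -0.26 without control replicate 3 to -0.02 without control replicate 4 or knockout replicate 4. Mmp1a, Mmp1b, Mmp7, Mmp8, Mmp10, Mmp12, Mmp16, Mmp20 and Mmp21 were below the limit. Mmp10, stromelysin 2, missed it only narrowly with a mean of 3.80. Its values were 3.49, 3.76, 3.81 and 3.60 in control and 3.81, 3.85, 3.98 and 4.09 in knockout hearts, which did not overlap before rounding, and it is named here after its values were seen. In a fit without the limit Mmp10 differed by 0.27 ± 0.10 (adjusted p = 0.529). Like Mmp3 and Mmp13 it carries TGANTCA, shown above.

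The ADAMs included sheddases, most of which passed the limit, and a larger number of genes known mainly from testis and epididymis. Among the sheddases that passed, Adam8 and Adam33 were weak, with means of 4.72 and 4.68. Of the 19 measured genes listed as reproductive tract ADAMs only Adam1a passed the limit. In the list of somatic sheddases 8 of 9 passed, and in a list of ADAMs without the catalytic zinc site 3 of 4. Each gene stands in 1 list only and the zinc site was not checked in protein sequences, so reproductive tract genes may lack it too. Adam19, a sheddase of neuregulins that is needed for the developing heart valves and septum, was at 7.03, 6.99, 7.11 and 7.15 in the control and at 6.73, 6.68, 6.82 and 6.89 in the knockout replicates. Every knockout heart lay below every control heart. The difference was -0.29 ± 0.08 (SE, 95% interval -0.46 to -0.12), or 81.8% of the control mean on the linear scale, with an unadjusted limma p of 4.02e-03, an adjusted p of 0.421 and an exact permutation p of 0.0286. It was -0.33 to -0.26 when any single array was left out and -0.32 without knockout replicates 1 and 4. A further Adam19 probe set, below the limit at 3.60 in control and 3.70 in knockout hearts, differed by 0.09 ± 0.18. With the mean of both probe sets the difference was -0.10, the largest change of this value under any alternative run, and the groups then overlapped.

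Adam9 and Adam12, sheddases that can release HB-EGF, were higher on average, each with its own pattern over the hearts. Adam9 stood at 8.62, 8.05, 8.14 and 8.19 in the control and at 9.24, 8.28, 8.30 and 9.03 in the knockout replicates, a difference of 0.46 ± 0.22 (SE, adjusted p = 0.468). Knockout replicates 1 and 4 were the highest hearts, and the difference was 0.28 without replicate 1 and 0.04 without both. Adam12, which is known to be induced in activated fibroblasts, was at 5.63, 5.50, 5.33 and 5.34 in the control and at 6.02, 5.23, 5.99 and 6.01 in the knockout replicates. Here knockout replicate 2, the array with high atrial markers, was the lowest of all 8 hearts and the other 3 knockout hearts lay above all controls. The difference was 0.36 ± 0.17 (SE, adjusted p = 0.458), with 0.56 without knockout replicate 2 and 0.16 without replicates 1 and 4.

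The main sheddases of Notch and TNF differed by small amounts. Adam10 was at 8.36 ± 0.16 in the control hearts and 8.43 ± 0.11 in the knockout hearts (SD, n = 4), with a 95% interval of the difference from -0.15 to 0.29. Adam17 was at 7.52 ± 0.06 and 7.44 ± 0.07, with an interval from -0.24 to 0.09. Adam8, a sheddase of leukocytes, differed by 0.24 ± 0.13 (SE, adjusted p = 0.498), Adam23, which lacks the zinc site, by 0.17 ± 0.12 (0.06 without knockout replicate 4), Adam1a by -0.08 ± 0.12 and Adam33 by -0.03 ± 0.09. Adam11 and Adam22, which also lack the zinc site, differed by 0.09 and 0.10. Adam15, a sheddase, differed by 0.02 ± 0.08 in its chosen probe set and by 0.22 ± 0.11 in a further one that also passed the limit.

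The ADAMTS genes were nearly all above the limit, and their differences ran in both directions. The 7 proteoglycan-cleaving genes had a median of 0.03, with 4 above and 3 below 0. Adamts4, aggrecanase 1, was at 4.81, 4.46, 4.35 and 4.43 in the control and at 4.98, 4.84, 4.61 and 4.80 in the knockout replicates. Only control replicate 1 reached into the knockout range, and the difference was 0.30 ± 0.12 (SE, 1.23-fold, unadjusted limma p of 0.0296, adjusted p of 0.422). It was 0.21 without knockout replicates 1 and 4. Adamts1, an inducible versican-cleaving enzyme, was at 7.21, 7.68, 8.12 and 7.81 in the control and at 7.60, 7.80, 8.52 and 7.90 in the knockout replicates. The groups overlapped, knockout replicate 3 being the highest heart and control replicate 1 the lowest, with a difference of 0.25 ± 0.22 (adjusted p = 0.674). This difference was 0.09 without control replicate 1, 0.39 without control replicate 3, 0.06 without knockout replicate 3 and 0.46 without knockout replicates 1 and 4. Adamts9, another versican-cleaving enzyme, was at 7.47, 7.68, 7.72 and 7.72 in the control and at 6.96, 7.59, 7.62 and 7.44 in the knockout replicates, a difference of -0.24 ± 0.14 (adjusted p = 0.522) that was -0.10 without knockout replicate 1 and -0.04 without replicates 1 and 4. Adamts5, aggrecanase 2, was at 7.22 ± 0.06 in the control hearts and 7.14 ± 0.03 in the knockout hearts (SD, n = 4), with a 95% interval of the difference from -0.23 to 0.07. Adamts15 differed by -0.14 ± 0.12 (-0.05 without knockout replicate 1) and Adamts8 by 0.03 ± 0.23 (SE).

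The 2 genes whose products cleave cartilage oligomeric matrix protein differed in opposite directions. Adamts12 was at 6.50, 5.79, 5.94 and 6.29 in the control and at 7.00, 6.40, 6.41 and 6.71 in the knockout replicates. Control replicate 1 lay above knockout replicates 2 and 3, and the other control hearts lay below all knockout hearts. Adamts12 differed by 0.50 ± 0.18 (SE, 95% interval 0.10 to 0.90, 1.42-fold), with an unadjusted limma p of 0.0185 and an adjusted p of 0.421, and by 0.28 without knockout replicates 1 and 4. Adamts7 was at 5.30, 5.20, 5.16 and 5.03 in the control and at 4.59, 5.16, 4.91 and 4.83 in the knockout replicates, so that only knockout replicate 2 entered the control range. Its difference was -0.30 ± 0.12 (SE, unadjusted limma p of 0.0304, adjusted p of 0.424), with -0.21 without knockout replicate 1 and -0.14 without replicates 1 and 4. The difference between the 2 genes was not tested. Of the procollagen N-proteinases, Adamts3 was at 5.23 ± 0.16 in the control hearts and 4.96 ± 0.23 in the knockout hearts (SD, n = 4). It differed by -0.27 ± 0.12 (SE, adjusted p = 0.453), which was -0.17 without knockout replicate 4 and -0.09 without replicates 1 and 4. Adamts14 differed by 0.09 ± 0.11 in its chosen probe set and by 0.01 ± 0.13 in a further one, and Adamts2 was not analysed here.

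The 2 listed fibrillin-associated ADAMTS genes, Adamts10 and Adamts6, differed in opposite directions, and Adamtsl2, from the ADAMTS-like list, was 1 of the 3 genes without overlap. Adamtsl2 encodes an ADAMTS-like protein without protease activity that binds fibrillin 1 and a latent TGF-beta binding protein. It stood at 7.04, 6.93, 6.57 and 6.71 in the control and at 7.29, 7.15, 7.13 and 7.55 in the knockout replicates, every knockout heart above every control heart. The difference was 0.47 ± 0.13 (SE, 95% interval 0.19 to 0.75, 1.38-fold), with an unadjusted limma p of 4.18e-03, an adjusted p of 0.421 and an exact permutation p of 0.0286. It was 0.38 to 0.54 when any single array was left out and 0.33 without knockout replicates 1 and 4. Adamts10, which promotes fibrillin 1 assembly, was at 6.30, 6.06, 5.84 and 6.10 in the control and at 6.37, 6.34, 6.20 and 6.47 in the knockout replicates. Only control replicate 1 and knockout replicate 3 crossed, and the difference was 0.27 ± 0.11 (SE, unadjusted limma p of 0.0299, adjusted p of 0.424), with 0.19 without knockout replicates 1 and 4. Adamts6 was at 6.53, 6.18, 6.14 and 6.04 in the control and at 5.98, 6.24, 5.76 and 6.24 in the knockout replicates, with overlapping groups. It differed by -0.17 ± 0.14 (SE, adjusted p = 0.649), and by -0.07 without control replicate 1 or without knockout replicate 3. The 5 ADAMTS-like genes had a median of 0.04, with 4 above and 1 below 0. The remaining ADAMTS and ADAMTS-like genes with a tested signal, Adamts13, Adamts17, Adamts19, Adamts20, Adamtsl1, Adamtsl4 and Adamtsl5, lay between -0.04 and 0.17.

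**Figure D3:**
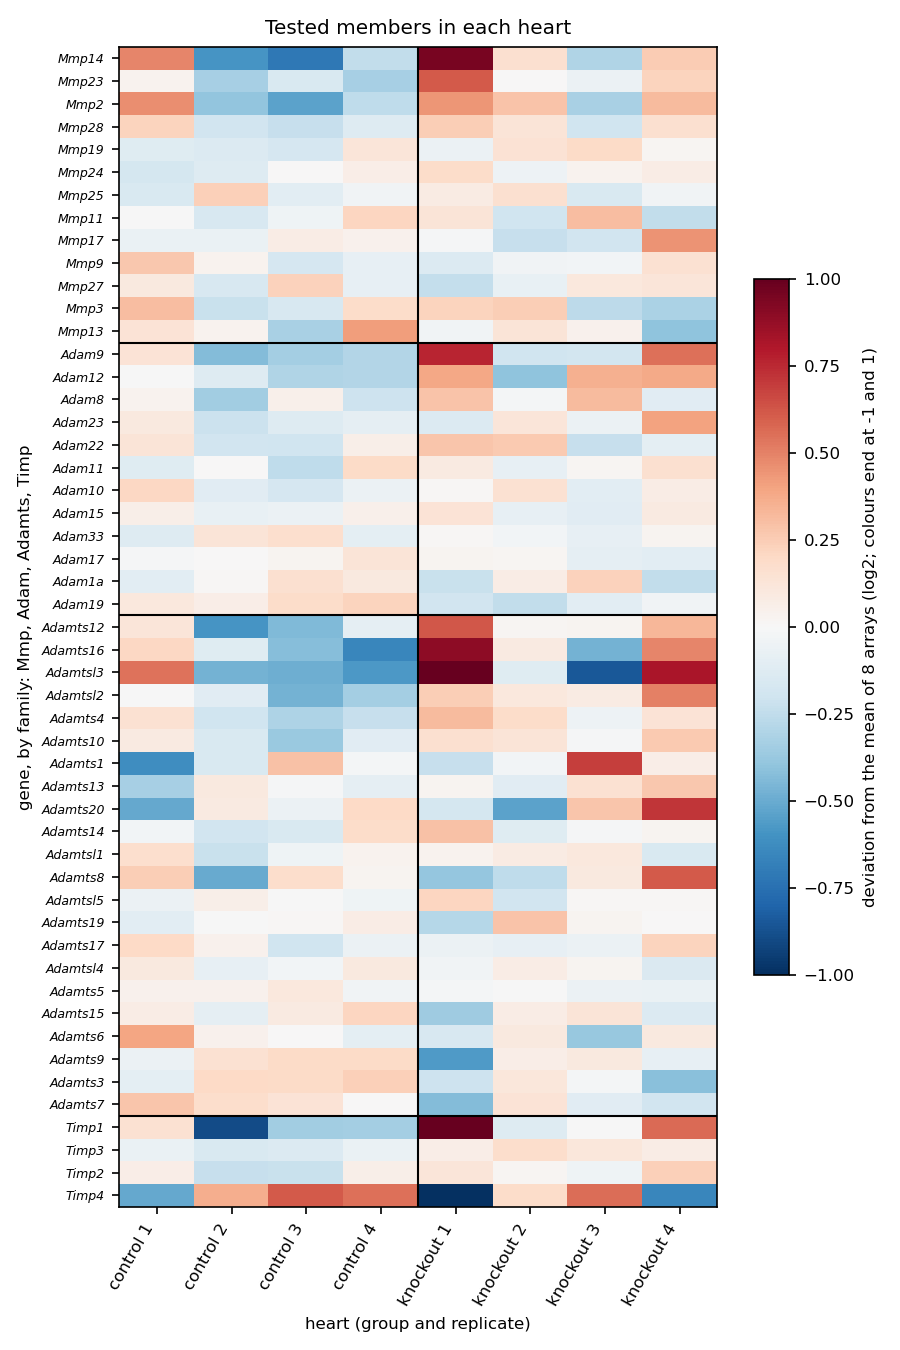
Deviation of each of the 51 tested genes (rows, by family and by decreasing difference) from its mean over the 8 arrays (log2, colour), with 1 column per heart. Knockout replicate 1 holds the most extreme value of Timp1, Mmp14, Adamtsl3 and Timp4, and control replicate 1 shares the sign of that heart in these 4 genes.

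The spread within groups had a pattern of its own. Knockout replicate 1 was the highest of the 8 arrays in 15 of the 51 tested genes (29.4%, against 18.5% of all genes), and control replicate 2 in 1 gene (1.96%, against 11.4%). Among the 4 control hearts, replicate 1 was the highest in 25 genes (49%, against 32.2% of all genes), and replicate 2 the lowest in 18 (35.3%, against 23.4%). The 11 genes without overlap when control replicate 1 was left out were, beside Timp3, Adamtsl2 and Adam19, Timp1, Mmp23, Adam9, Adamts4, Adamts10 and Adamts12, higher in the knockout, and Adamts3 and Adamts9, lower. The median within-group SD was 0.18 for the tested genes of the families and 0.15 for all genes tested.

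The widest spread within groups was that of Adamtsl3, an ADAMTS-like gene described here, like Adamts16, after its values were seen. Adamtsl3 had values of 6.01, 4.99, 4.98 and 4.89 in the control and 6.61, 5.34, 4.62 and 6.28 in the knockout replicates. Its 3 high hearts are those in which Timp4 was low, and its difference of 0.49 ± 0.41 (adjusted p = 0.654) turned to -0.24 without knockout replicates 1 and 4. It was 0.76 without control replicate 1, 0.86 without knockout replicate 3, 0.19 without knockout replicate 1 and 0.31 without knockout replicate 4. Adamts16 was at 4.91, 4.58, 4.28 and 4.05 in the control and at 5.60, 4.79, 4.23 and 5.19 in the knockout replicates, again highest in replicates 1 and 4, with a difference of 0.50 ± 0.28 (adjusted p = 0.508) that was 0.28 without knockout replicate 1 and 0.05 without both.

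**Figure D4:**
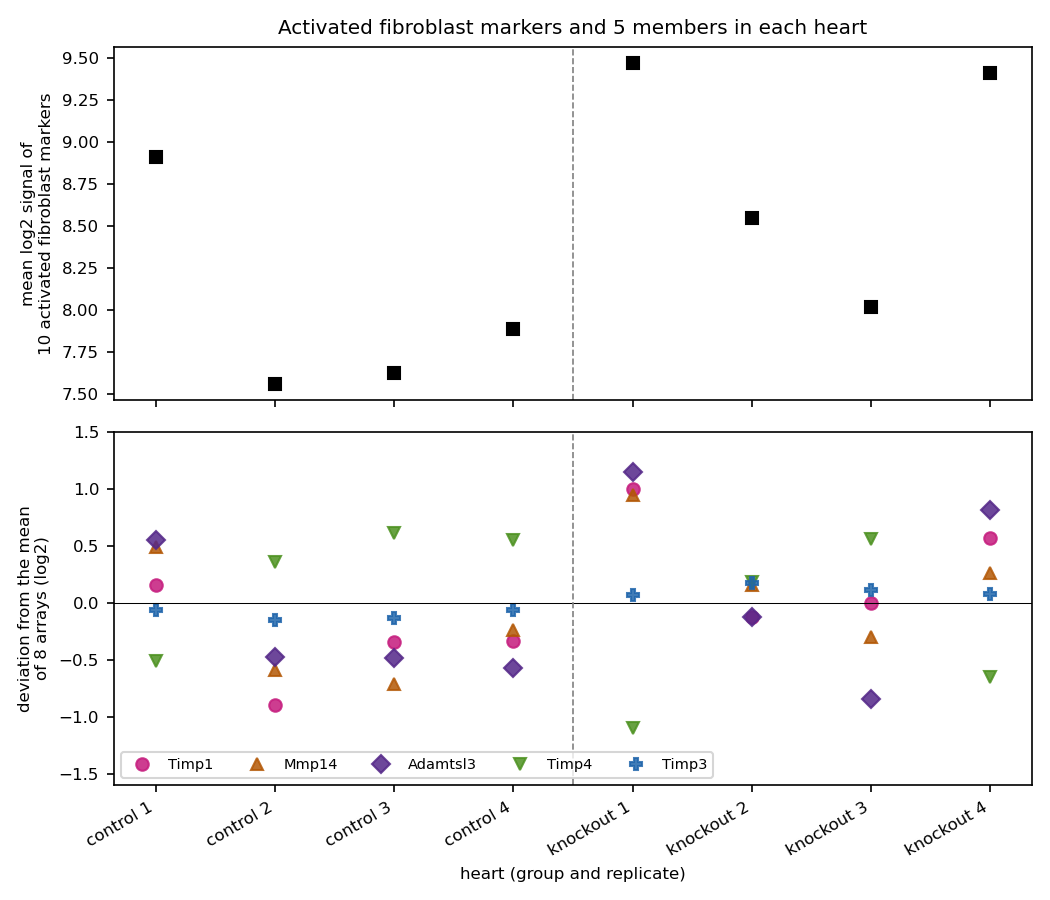
Mean log2 signal of 10 activated fibroblast markers in each heart (upper panel) and the deviation of 5 genes from their mean over the 8 arrays (lower panel, log2). Control replicate 1 and knockout replicates 1 and 4 have the highest marker means and the lowest Timp4, while Timp3 is below 0 in each control heart and above 0 in each knockout heart.

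Other genes of the system were taken from lists. Of 24 genes that activate, carry or restrain metalloproteinases, 20 were tested, with 13 higher, 7 lower, a median of 0.06 and 0 past the test. An unadjusted p under 0.05 was found in 2 of the 20, both higher, against 5.64% of all genes in that direction. Rhbdf1, an iRhom that brings ADAM17 to the cell surface, differed by 0.22 ± 0.10 and Lrp1, the receptor that clears MMPs and TIMPs from the extracellular space, by 0.24 ± 0.11 (SE, adjusted p = 0.444 each). Tspan17, a tetraspanin partner of ADAM10, was at 7.72, 7.06, 7.05 and 7.47 in the control and at 8.41, 7.53, 7.22 and 7.97 in the knockout replicates, a difference of 0.46 ± 0.24 (adjusted p = 0.497) that was 0.25 without knockout replicate 1 and 0.05 without replicates 1 and 4. The proprotein convertase gene Pcsk6, the MMP inducer gene Bsg and the urokinase receptor gene Plaur differed by -0.12 ± 0.10, -0.07 ± 0.07 and -0.11 ± 0.13. Without knockout replicate 1 Pcsk6 differed by -0.04 and Plaur by -0.03, and Plaur by -0.20 without control replicate 1 and -0.02 without control replicate 3.

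Of 20 proteoglycan and shed-ligand substrates 17 were tested, with 12 higher, 5 lower, a median of 0.12 and 0 past the test. The unadjusted p was under 0.05 in 5 of them, all higher, against 5.64% of all genes in that direction. Hbegf, the growth factor precursor released by ADAM12 and ADAM17, was at 7.75, 7.47, 7.57 and 7.24 in the control and at 8.71, 7.86, 8.52 and 8.65 in the knockout replicates. All knockout hearts lay above all control hearts, with a difference of 0.92 ± 0.18 (SE, 1.9-fold), an adjusted p of 0.421 and an exact permutation p of 0.0286, and it was 0.68 without knockout replicates 1 and 4. Nrg1, the neuregulin that ADAM19 can release, stood at 4.53, 4.88, 4.53 and 4.81 in the control and at 6.39, 5.36, 4.80 and 6.10 in the knockout replicates. Knockout replicate 3 lay within the control range, and the difference of 0.98 ± 0.29 (adjusted p = 0.421) was 0.39 without knockout replicates 1 and 4. Cx3cl1, a chemokine shed by ADAM10 and ADAM17, differed by 0.58 ± 0.16 (adjusted p = 0.421), and by 0.34 without those hearts. The lower ones with the smallest p were the EGF family ligand gene Btc (-0.25 ± 0.14), the stem cell factor gene Kitl (-0.16 ± 0.14) and Dcn, which encodes the proteoglycan decorin (-0.04 ± 0.08). Btc differed by -0.15 without control replicate 2 and by -0.13 without knockout replicate 2, and Kitl by -0.03 without knockout replicate 1 and -0.28 without knockout replicate 2.

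The other 31 genes of the families lay below the limit, with mean signals from 1.69 to 3.80. In a fit without the limit 4 of these 31 had an unadjusted p under 0.05, Mmp10 and Adam6a higher and Adam34l and Adam21 lower, against 9.03% of all genes in that fit. The groups did not overlap for Mmp10, Adam6a (0.20 ± 0.08, adjusted p = 0.535) and Adam26b (-0.24 ± 0.12, adjusted p = 0.569), and these genes are named after their values were seen. With the 3 tested genes this made 6 of 82 without overlap (7.32%), against 4.44% of all genes. The 31 genes were 21 Adam genes, among them Adam28, the 9 Mmp genes named above and Adamts18. Neighbouring genes often shared this: the runs Adam24, Adam25, Adam20 and Adam39 and Adam26b, Adam26a and Adam34l on chromosome 8 were wholly below the limit, and of the run Adam18, Adam3, Adam5, Adam32 and Adam9 only Adam9 passed. Adamts1 and Adamts5 on chromosome 16 and Adamts15 and Adamts8 on chromosome 9 are neighbouring pairs in which both genes passed.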

How the data were processed

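Biotin-labelled total RNA of frozen hearts was hybridised to Affymetrix arrays, per the labels' protocols. The values the authors deposited are log2 signals, 41345 probe sets on each of 8 arrays. The submitters' processing notes name RMA (background correction, quantile normalization and probe summary) and limma, without versions. Quantile normalization hides a shift common to all genes. No batch or array date was known. The number of arrays limits the precision, and signals carry no detection call.

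Samples were grouped by title. The platform annotation gave 23521 probe sets 1 symbol, 1814 several symbols and 16010 no symbol. Symbols were updated through Entrez identifiers for 23328, and no symbol of the families was altered. In the families, 3 probe sets with several symbols (of Mmp24 and Adam34) were not used. Genes with a mean of at least 3.80 (log2, the 40th percentile) were tested, knockout minus control, with limma 3.58.1 in R 4.3.3 (lmFit, eBayes, Benjamini-Hochberg over 15086 genes, threshold 0.05), a step tested on simulated data. For single genes an exact permutation test was added (two-sided, 70 assignments, smallest p 0.0286), with no adjustment over genes. Named genes were a panel, all tested genes without overlap, and up to 4 per direction and family or 3 per other list with the smallest p. The genes, lists and rules were chosen with earlier results of these data known. Alternatives were other filters and scalings, the mean of probe sets, array weights, trend with robust estimation, a block for the replicate number, and leaving out arrays. Leaving out knockout replicates 1 and 4 together was chosen after the data were seen, for their high activated fibroblast markers. Control replicate 1 was kept, although its marker mean of 8.91 exceeded those of knockout replicates 2 and 3 (8.55 and 8.02). Smaller or turned differences without knockout replicates 1 and 4 follow partly from that choice.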

Additional observations from a re-analysis of the deposited data

Results flagged for a closer look

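In 6 of 94 groups of 4 values examined for the named genes, the highest or lowest heart stood farther from the others than Dixon's criterion allows, and chance gives about 5 in 100. In the knockout group Adam12 had 1 low heart, replicate 2, at 5.23, with the others between 5.99 and 6.02. In the control group the highest heart stood apart for Adamtsl3 (replicate 1 at 6.01, others 4.89 to 4.99), Mmp19 (replicate 4 at 5.65, others 5.36 to 5.41) and the ligand gene Btc (replicate 2 at 5.59, others 5.20 to 5.22). Control replicate 1 was the low heart for Adamts3, at 5.00 with the others between 5.29 and 5.34, and for Adamts9, at 7.47 with the others between 7.68 and 7.72. These are values only, and the 3 genes in which control replicate 1 stands apart were not examined further.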

How the results depend on the processing

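No setting called a gene: 0 of the families and 0 of all genes passed at an adjusted p of 0.05 in any of the alternatives run, or at 0.1 in the main analysis. At an unadjusted p under 0.05 limma gave 9 genes of the families in the main analysis and 3 to 15 when 1 array was left out (5.88% to 29.4%, all genes 6.54% to 15.8%). The count without overlap was 3 (5.88%, all genes 5.23%), against 6 with no filter (7.32%, all genes 4.44%), 6 without knockout replicates 1 and 4 (11.8%, all genes 12.4%), and 3 to 11 when 1 array was left out (5.88% to 21.6%, all genes 6.89% to 14%), where fewer values overlap less often by construction. With the mean of probe sets the count without overlap was 2 (3.92%, all genes 5.26%). The Mmp median of 0.03 was 0.26 under a filter at the 60th percentile, where fewer weak genes remain, and the Adamts median was 0.02 to 0.11 when 1 array was left out. The medians of Adam and Timp genes, regulators and substrates moved by less than the spread between replicates.

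Of 771 values of 46 named genes other than Cited4 under the alternatives, 748 kept their direction and 23 turned, with adjusted p-values from 0.109 to 0.999. Without knockout replicates 1 and 4 those that turned were Timp4 (0.11), Adamtsl3 (-0.24), Adam1a (0.11), Adamts15 (0.03), Adamts8 (-0.06), Mmp13 (0.02), Kitl (0.10), Pcsk6 (0.03) and Plaur (0.02). When 1 array was left out, differences near 0 changed sign for Mmp3 (-0.14 to 0.04), Mmp9 (-0.09 to 0.05), Mmp27 (-0.10 to 0.03), Adam33 (-0.08 to 0.02) and Adamts8 (-0.17 to 0.17). Mmp9 was 0.01 with array weights, and Dcn was 0.01 with quantile normalization applied again. The cause was not tested.

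With the replicate number as a block, 0 genes of the families passed. An unadjusted limma p under 0.05 was found in 18 of them (35.3%), against 9 (17.6%) in the main analysis. Over all genes it was found in 2177 (14.4%), against 1697 (11.2%). Whether the replicate numbers pair the samples was not tested. Deviations of same-numbered arrays correlated at 0.359, 0.009, 0.282 and -0.025, and 4 of 8 arrays matched best with their own number. Weak signals limit the reading of 20 tested genes with a mean under 5, and of the 31 below the limit.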
